A study of Mus musculus with 6 samples.

Results

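Heat shock proteins and other molecular chaperones bind unfolded or newly made proteins and help them to reach or regain their folded state. 10 such genes were examined in the sciatic nerve: the inducible Hsp70 genes Hspa1a and Hspa1b, the constitutive Hsp70 gene Hspa8, the endoplasmic reticulum Hsp70 gene Hspa5, the Hsp110 gene Hsph1, the Hsp90 genes Hsp90aa1 and Hsp90ab1, the mitochondrial chaperonin genes Hspd1 and Hspe1, and the J-domain co-chaperone gene Dnajb1. They were chosen by gene symbol. All 10 were found among 39174 genes in the tables, and all 10 were among the 21285 genes tested, whose mean reached 0.1 FPKM in 1 genotype or both. FPKM count the fragments of a gene per kilobase of its transcript, relative to the mapped fragments of the library, so levels can be set side by side between genes of different length.

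RNA was taken from sciatic nerves of 3 wild-type mice (Plekhg5+/+, numbered 2, 4 and 5) and 3 Plekhg5-deficient mutant mice (Plekhg5-/-, numbered 2, 3 and 5), with no treatment named for either. Values of single nerves are given in that order throughout. The study's text gives the age of the animals used for sequencing as 12 months, and the sample records say only that they were adult. Plekhg5 encodes a guanine nucleotide exchange factor with a role in autophagy, and it is missing from the whole animal, so an effect in 1 cell type of the nerve cannot be separated from effects in others. The comparison addressed which transcripts differ between sciatic nerves with and without Plekhg5. Values below are FPKM divided by a scaling factor for each library, from 0.745 to 1.12, and fold changes were fitted on log2(FPKM + 1), which understates the change of genes at low levels.

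When proteins unfold, heat shock factor 1 is released from chaperones and binds heat shock elements, inverted repeats of the bases GAA, in the promoters of inducible chaperone genes. Unfolded protein in the endoplasmic reticulum acts through separate sensors and a different promoter element. Hsp70 proteins work in cycles with J-domain proteins, which deliver substrates, and with nucleotide exchange factors such as Hsp110, whereas Hsp90 proteins act later on partly folded clients. In peripheral nerve, Schwann cells make large amounts of membrane proteins, among them Pmp22, which is known to misfold in inherited neuropathies.

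Plekhg5 itself was measured at 3.65, 4.13 and 5.26 FPKM in the wild type, against 0.141, 0.140 and 0.0521 FPKM in mutant nerves (log2 fold change -2.26, adjusted p = 0.0380, limma), so its level matched the label of the genotype in all 6 libraries. All 6 libraries carried Y-linked transcripts (Ddx3y at 4.76 to 6.56 FPKM) and almost no Xist (at most 0.0193 FPKM). The Schwann cell myelin transcript Pmp22 was abundant in every library, at 4253 to 9389 FPKM. Both libraries numbered 5 stood apart from the other 4. Macrophage markers summed to 424 FPKM in wild-type nerve 5 and 439 FPKM in Plekhg5-deficient nerve 5, against 171 to 202 FPKM elsewhere. T-cell and B-cell markers reached 182 FPKM in wild-type nerve 5 and 3.59 to 10.3 FPKM in the other libraries. Erythroid transcripts reached 230224 FPKM in Plekhg5-deficient nerve 5 and 4064 to 24371 FPKM in the other libraries. Skeletal muscle transcripts ranged from 3392 to 21470 FPKM in wild-type nerves and from 313 to 55504 FPKM in mutant nerves. Fibroblast markers summed to 2160 to 3538 FPKM, endothelial markers to 81.6 to 174 FPKM and adipocyte markers to 591 to 4568 FPKM. In whole tissue, fewer cells of a type and less RNA per cell cannot be told apart.

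The promoters carry different response elements, and a few are shown to set the members with a heat shock element apart from Hspa5, which has an endoplasmic reticulum stress element instead. Promoter sequences were matched by symbol in a RefSeq table on GRCm38.p6 for 7 of the 10 genes, with Hspa8, Hsp90aa1 and Hsp90ab1 not matched. The 250 bases before the start of Hspa1a (chr17:34972157-34972406, minus strand) hold 1 heat shock element, GAANNTTC or TTCNNGAA on either strand, at positions -104 to -97 from the start, in capitals. The same 250 bases of Hspa1b (chr17:34959239-34959488, minus strand) are 98.8% identical, with 3 mismatches, and hold the same element at the same positions.
Hspa1a: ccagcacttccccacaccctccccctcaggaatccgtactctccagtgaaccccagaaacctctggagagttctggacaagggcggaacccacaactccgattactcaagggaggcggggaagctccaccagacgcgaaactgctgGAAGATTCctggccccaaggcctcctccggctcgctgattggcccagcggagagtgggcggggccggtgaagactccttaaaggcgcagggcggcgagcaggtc

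Shorter stretches of 30 bases around the elements of other members are given below, also in capitals. In the first, the element lies upstream of Hspe1, inside the annotated first part of Hspd1 on the opposite strand, and falls in promoter windows of both genes (chr1:55088053-55088082, shown on the plus strand as for Hspe1). It holds 3 overlapping heat shock elements, which also make up 2 of the longer form with 3 alternating GAA and TTC units, each 2 bases apart. In Hsph1 (chr5:149636351-149636380, minus strand) there is 1 heat shock element. In Hspa5 (chr2:34772020-34772049, plus strand) the capitals mark an endoplasmic reticulum stress element, CCAAT and CCACG with 9 bases between them.
Hspe1 and Hspd1: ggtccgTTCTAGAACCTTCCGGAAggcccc
Hsph1: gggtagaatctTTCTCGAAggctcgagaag
Hspa5: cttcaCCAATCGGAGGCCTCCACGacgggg

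Of 32851 promoter windows of 250 bases in the table, 12.8% hold the short heat shock element on either strand, 0.466% the 3-unit form and 0.113% the endoplasmic reticulum stress element. Neither element was found in the windows of Dnajb1. A match describes the letters only and is not evidence of binding in these nerves.

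None of the 10 genes passed an adjusted p under 0.05 (limma), where 0.0376% of all tested genes did, and none reached an unadjusted p under 0.05, where 5.11% of all genes did. In no member did the 3 wild-type and the 3 Plekhg5-deficient libraries separate without overlap, as they did for 11.6% of all genes. The fitted difference was below 0, that is lower in Plekhg5-deficient nerves, for 8 of 10 genes, against 48.9% of all genes, and its median was -0.36 on the log2 scale against 0.0065 over all genes. Single libraries moved this median, to -0.11 without wild-type nerve 2, -0.16 without wild-type nerve 4, -0.79 without wild-type nerve 5 and -0.55 without Plekhg5-deficient nerve 3, and it was -0.62 without both nerves numbered 5. Every adjusted p was at least 0.974 (limma). The exact permutation test of the difference in means gave two-sided p values from 0.2 to 1 over the 10 genes, and 3 animals against 3 cannot give less than 0.1. These p-values do not show that the genotypes are alike, because the 95% intervals below leave room for differences of more than 1 log2 unit in 7 of the 10 genes.

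**Figure D1:**
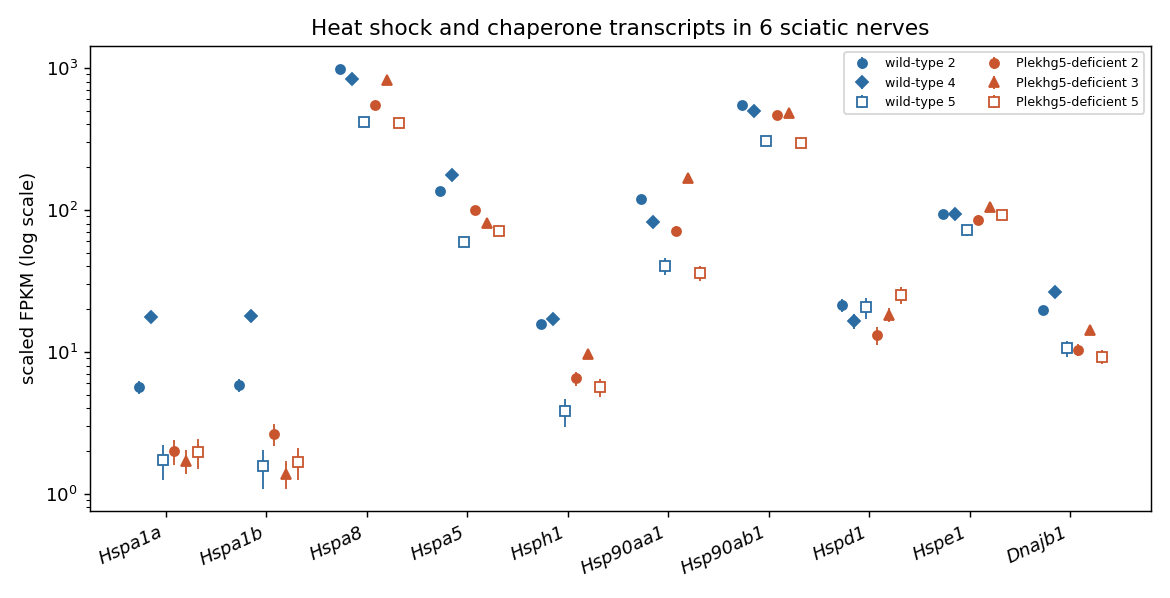
Scaled FPKM of the 10 genes (log axis) in each of the 6 sciatic nerves, wild type in blue and Plekhg5-deficient in orange, with the 95% interval that Cufflinks gave as a bar and both nerves numbered 5 as open squares. Hspa1a and Hspa1b stood highest in wild-type nerve 4, at 17.6 and 18.0 FPKM, and the open squares were the lowest points for Hspa8, Hspa5, Hsph1, Hsp90aa1 and Hsp90ab1.

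Hspa1a and Hspa1b, which encode the stress-inducible cytosolic Hsp70, lie next to each other on chromosome 17 of GRCm38 (34969199 to 34972154 and 34956436 to 34959238). They gave the largest fitted differences of the 10 genes, and both were carried by 2 wild-type libraries. In wild-type nerves 2, 4 and 5, Hspa1a was measured at 5.62, 17.6 and 1.73 FPKM, against 1.99, 1.71 and 1.96 FPKM in mutant nerves 2, 3 and 5. Hspa1b was measured at 5.85, 18.0 and 1.56 FPKM in the wild type, against 2.64, 1.39 and 1.67 FPKM in mutant nerves. Wild-type nerves 4 and 2 were therefore the highest for both genes, while wild-type nerve 5 lay within the range of the Plekhg5-deficient nerves. For Hspa1a, the Cufflinks interval was 16.2 to 19.0 FPKM in wild-type nerve 4, 5.02 to 6.22 in wild-type nerve 2 and 1.25 to 2.21 in wild-type nerve 5, so the intervals of the 3 wild-type nerves did not overlap.

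The coding sequences of the pair share 99.4% of their bases over open reading frames of 641 and 642 codons, against 74.1% between Hspa1a and Hspa8. Of all stretches of 66 bases, the length of a trimmed read, in the annotated transcript of Hspa1a, 54.7% also occur in Hspa1b, so reads of the pair could be assigned to either. Their sum depends less on that assignment, although 63.4% of the stretches of Hspa1a occur in Hspa1b or another annotated gene. It was 11.5, 35.6 and 3.28 FPKM in the wild type, against 4.63, 3.09 and 3.64 FPKM in mutant nerves. On average the sum was 4.43-fold lower in mutants (3.79 ± 0.779, SD, n = 3) than in wild-type nerves (16.8 ± 16.8, SD, n = 3), where the SD was as large as the mean. The log2 fold change of the sum was -1.40 (standard error 0.72, 95% interval -3.12 to 0.32, adjusted p = 0.974, limma). It was -0.62 without wild-type nerve 4, -2.18 without wild-type nerve 5 and -2.18 without both nerves numbered 5, with adjusted p values of 0.999, 0.801 and 0.662 (limma).

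The genes nearest to this pattern were sought among those averaging 10 FPKM or more, by the root mean square difference of centred log2 values over the 6 libraries. They were Rbm28 (0.570), Frzb (0.647), Thbs1 (0.658), Egr1 (0.689) and Dgat2 (0.704). Egr1, an immediate early transcription factor, was measured at 10.3, 29.97 and 14.0 FPKM in the wild type, against 6.15, 6.52 and 6.01 FPKM in mutant nerves. Its genotypes did not overlap, and its log2 fold change was -1.27 (standard error 0.37, adjusted p = 0.785, limma). Frzb, a secreted Wnt antagonist, was measured at 46.0, 133 and 33.8 FPKM in the wild type, against 51.8, 46.6 and 22.5 FPKM in mutant nerves. All 5 genes were highest in wild-type nerve 4, as their likeness to the Hspa1 pair requires.

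Immediate early genes are transcribed within minutes of a stimulus, and their list of 14 genes was highest in the same library. It summed to 148, 277 and 204 FPKM in the wild type, against 152, 169 and 241 FPKM in mutant nerves. Of the 14 genes, 7 were highest in wild-type nerve 4, 4 in Plekhg5-deficient nerve 5 and 3 in wild-type nerve 5. The share of all genes highest in each library was not determined. No gene of the list passed the adjusted threshold, and 4 were lower in mutants at an unadjusted p under 0.05, as were 2.69% of all genes. They were Egr1, Arc, Egr3 and Fosb, the last 3 at 0.0476 to 4.38 FPKM. The part of these transcripts in the values of Hspa1a and Hspa1b was not tested.

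Hspa8, the constitutive cytosolic Hsp70 (chromosome 9, 40800984 to 40805200), was the most abundant of the 10. It stood at 987, 839 and 416 FPKM in the wild type, against 552, 825 and 412 FPKM in mutant nerves. Both nerves numbered 5 were lowest and nearly equal, with Cufflinks intervals of 398 to 434 and 396 to 429 FPKM. The log2 fold change was -0.29 (standard error 0.42, 95% interval -1.31 to 0.72). It was -0.45 without both nerves numbered 5, -0.68 without wild-type nerve 5 and -0.56 without Plekhg5-deficient nerve 3, but -0.16 without wild-type nerve 4, -0.037 without wild-type nerve 2 and -0.059 without Plekhg5-deficient nerve 5. Reads of Hspa8 can also match Gm15459, whose annotated sequence contains 31.7% of its 66-base stretches and which was listed at 110 to 353 FPKM, so the level of Hspa8 depends on how such reads were shared.

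Hspa5, which encodes the endoplasmic reticulum Hsp70 known as BiP (chromosome 2, 34771970 to 34776531), was measured at 135, 176 and 59.8 FPKM in the wild type, against 99.6, 80.5 and 71.2 FPKM in mutant nerves. The 2 highest values were wild-type and the lowest was wild-type as well, so the Plekhg5-deficient range lay inside that of the wild type. The log2 fold change was -0.44 (standard error 0.40, 95% interval -1.40 to 0.53). It was -0.79 without both nerves numbered 5 and -0.12 without wild-type nerve 4. None of its 66-base stretches occurs in another annotated gene.

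Hsph1, the Hsp110 that releases nucleotide from Hsp70 (chromosome 5, 149614287 to 149636376), was measured at 15.7, 16.9 and 3.80 FPKM in the wild type, against 6.50, 9.68 and 5.62 FPKM in mutant nerves. As for Hspa5, all 3 Plekhg5-deficient values fell between the extremes of the wild type. Its log2 fold change was -0.48 (standard error 0.53, 95% interval -1.74 to 0.78), with -0.97 when both nerves numbered 5 were left out and -0.15 when wild-type nerve 4 was.

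Dnajb1, the J-domain protein that stimulates Hsp70 during stress (chromosome 8, 83608175 to 83611902), stood at 19.7, 26.3 and 10.6 FPKM in the wild type. In mutant nerves it stood at 10.3, 14.3 and 9.25 FPKM. Here only wild-type nerve 5 reached down into the Plekhg5-deficient range. On average Dnajb1 was 1.67-fold lower in mutants (11.3 ± 2.69, SD, n = 3) than in wild-type nerves (18.9 ± 7.89, SD, n = 3), and the log2 fold change was -0.63 (standard error 0.34, 95% interval -1.45 to 0.20, adjusted p = 0.974, limma). The exact permutation test gave p = 0.2 (two-sided). The log2 fold change was -0.87 without both nerves numbered 5 and -0.36 without wild-type nerve 4.

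Hsp90aa1 and Hsp90ab1 encode the inducible and the constitutive cytosolic Hsp90, and their coding sequences are 75.7% identical. Hsp90aa1 (chromosome 12, 110690605 to 110702728) was measured at 119, 82.4 and 40.4 FPKM in the wild type, against 71.1, 168 and 35.8 FPKM in mutant nerves. Its highest value belonged to Plekhg5-deficient nerve 3, in contrast to the Hspa1 pair. The log2 fold change was 0.04 (standard error 0.62, 95% interval -1.45 to 1.52), and its sign depended on which libraries and which scaling were used. Gm12346 holds 38.2% of the 66-base stretches of Hsp90aa1 and was listed at 15.2 to 78.9 FPKM.

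Hsp90ab1 (chromosome 17, 45567775 to 45573271) stood at 551, 500.1 and 304 FPKM in the wild type, against 469, 484 and 298 FPKM in mutant nerves. The library number set these values apart more than the genotype did, since the 4 nerves with other numbers all lay above both nerves numbered 5. Its log2 fold change was -0.10 (standard error 0.33, 95% interval -0.89 to 0.68). The sign turned without wild-type nerve 2 (0.073) or Plekhg5-deficient nerve 5 (0.12).

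Hspd1 and Hspe1, the Hsp60 and Hsp10 subunits of the mitochondrial chaperonin, overlap at their 5′ ends on chromosome 1 (55077835 to 55088243, minus strand, and 55088132 to 55091307, plus strand). No source used here gives whether the authors counted by strand, so fragments from the overlap may have been counted for either gene. Hspd1 was measured at 21.3, 16.5 and 20.6 FPKM in the wild type, against 13.1, 18.3 and 25.2 FPKM in mutant nerves. Hspe1 was measured at 93.8, 93.9 and 71.6 FPKM in the wild type, against 85.4, 104 and 92.4 FPKM in mutant nerves. The highest and the lowest value of Hspd1 were both in Plekhg5-deficient nerves, and the 2 genes did not share their order of libraries. The log2 fold changes were -0.079 (standard error 0.26, 95% interval -0.70 to 0.54) for Hspd1 and 0.13 (standard error 0.19, 95% interval -0.32 to 0.58) for Hspe1. These were the narrowest intervals of the 10 genes. The sign turned for Hspd1 without Plekhg5-deficient nerve 2 (0.14) and for Hspe1 without wild-type nerve 5 (-0.011).

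**Figure D2:**
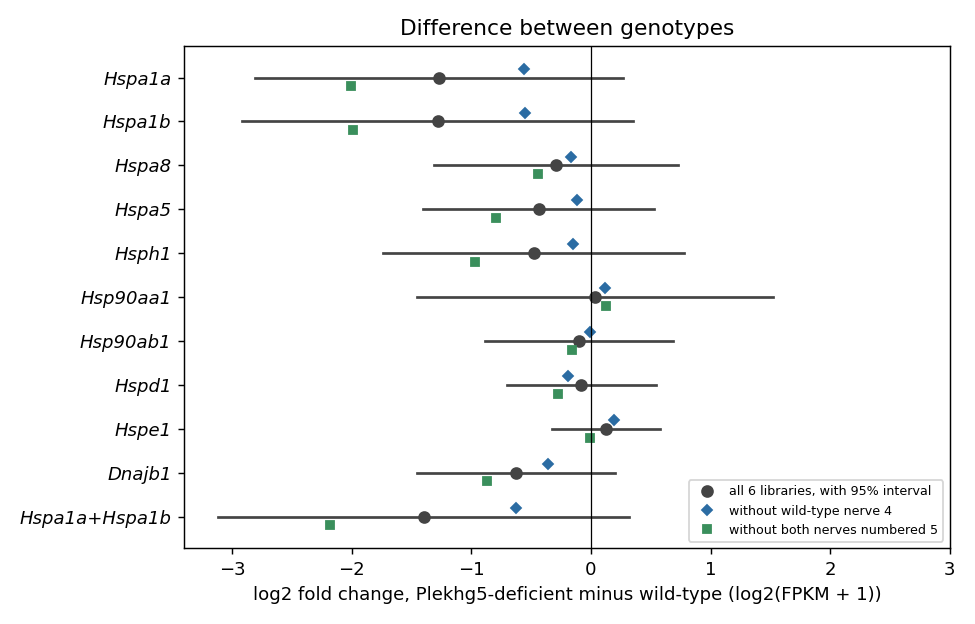
Log2 fold change of each gene, and of the sum of Hspa1a and Hspa1b, between Plekhg5-deficient and wild-type nerves (horizontal axis, log2(FPKM + 1)). Grey points with bars are the fit of all 6 libraries with its 95% interval, blue diamonds the value without wild-type nerve 4 and green squares the value without both nerves numbered 5; every interval spans 0, and the sum of Hspa1a and Hspa1b moved from -1.40 to -0.62 and -2.18.

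The 10 genes varied between libraries by different amounts, here set beside all genes averaging 10 FPKM or more, although Hspa1a, Hspa1b and Hsph1 themselves averaged less, at 5.11, 5.18 and 9.71 FPKM. The highest library was 10.3 times the lowest for Hspa1a and 13.0 times for Hspa1b. Of the reference genes, 4.66% and 4.11% varied as much, and the median ratio was 1.83. The ratio was 4.68 for Hsp90aa1 and 4.45 for Hsph1, where 8.43% and 8.88% of genes varied as much. It was 2.95 for Hspa5, 2.84 for Dnajb1 and 2.39 for Hspa8, which 16.0%, 17.3% and 24.8% of genes reached. Hspd1, Hsp90ab1 and Hspe1 varied least, by 1.93, 1.85 and 1.46, which 43.3%, 48.7% and 82.0% of genes reached. By the root mean square difference of centred log2 values, the closest of the 45 pairs of members were Hspa1a with Hspa1b (0.156), Hspa8 with Hsp90ab1 (0.215) and Hspa5 with Dnajb1 (0.257). Because reads of Hspa1a and Hspa1b could be assigned to either, their closeness and their ratios are not separate results. Hspd1 with Hspe1 came 9th, at 0.328.

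For 5 of the 10 genes, both nerves numbered 5 lay below all 4 other nerves. This held for 17.0% of all tested genes and for 20.3% of the 6498 genes averaging 10 FPKM or more. The 5 genes were Hsp90aa1, Hsph1, Hspa8, Hspa5 and Hsp90ab1, and the mean of the other 4 nerves was 1.67 to 2.89 times that of the nerves numbered 5. Summed over the 10 genes, FPKM were 1954, 1787 and 929 in the wild type, against 1311, 1706 and 954 in Plekhg5-deficient nerves. Most of each sum came from Hspa8 and Hsp90ab1, which are among these 5 genes, so it mainly repeats their values. In this sum the nerve numbered 5 was the lowest of each genotype. In the same 2 nerves, 7 of 8 macrophage markers and 6 of 8 erythroid markers were higher than in all 4 others, against 15.3% of all tested genes, and no marker of these lists was at 0 in any library. The part of these markers in the chaperone values was not tested, and the sources do not say what the number stands for.

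Set against the nerve of the same number, log2 differences of the 10 genes between Plekhg5-deficient and wild-type nerve 2 ran from -1.16 to -0.13. Between the nerves numbered 5 they ran from -0.18 to 0.46. With 1 nerve per genotype in each set, these differences have no replicate check. The same differences over all tested genes were not examined, so the ranges have no background to be set against.

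**Figure D3:**
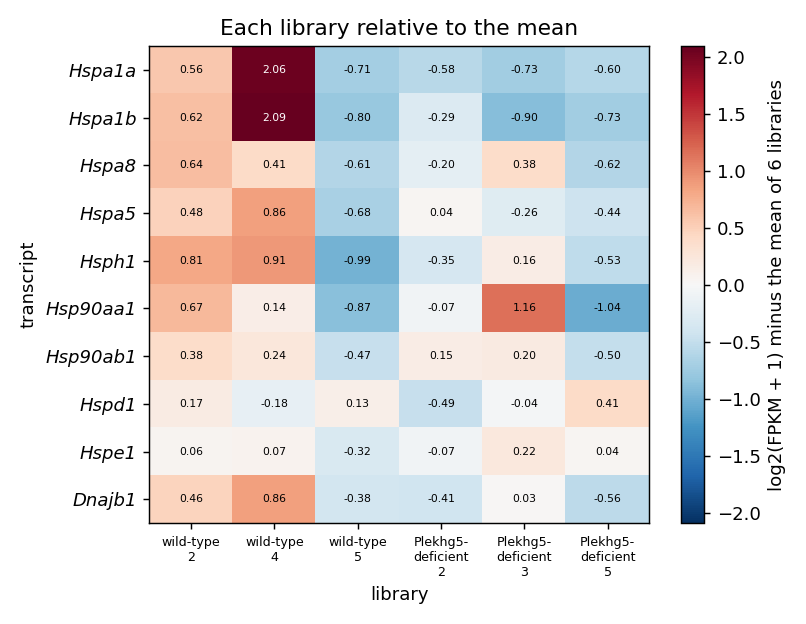
Level of each gene in each nerve on the log2(FPKM + 1) scale after subtracting the mean of the 6 nerves, in red where above and in blue where below. Wild-type nerves 2 and 4 are red in most rows. Wild-type nerve 5 and Plekhg5-deficient nerves 2 and 5 are blue in most rows, and Plekhg5-deficient nerve 3 is red for Hsp90aa1.

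The other genes of the folding machinery were taken from 10 lists by role, with 108 symbols, of which 106 genes were tested. No gene passed the adjusted threshold (limma). At an unadjusted p under 0.05 there was 1 lower, Edem1, and 1 higher, Fkbp5, where 5.11% of all genes reached this in either direction. The log2 fold change was below 0 for 52 of the 106 genes, with a median of 0.0092. Every Plekhg5-deficient nerve lay below every wild-type nerve for 6 of the 106 genes, against 5.88% of all genes. For 3 others every Plekhg5-deficient nerve lay above, and over all genes 11.6% separated in either direction. Both nerves numbered 5 lay below all others for 30 of them, or 28.3%, against the 17.0% of all genes given above. For genes averaging 10 FPKM or more this was 20 of 74, or 27.0%, against 20.3%.

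Genes of the endoplasmic reticulum stress response, which include folding enzymes and degradation factors, had the lowest median of the 10 lists, at -0.16, and 15 of 18 were below 0, against 48.9% of all genes. Their log2 fold changes ran from -0.55 for Herpud1 to 0.42 for Sel1l, which was higher in mutants by as much as Edem1 was lower. Under several alternatives the median of small heat shock proteins was lower than that of the stress response genes. It was -0.14 without wild-type nerve 2, -0.26 without wild-type nerve 4 and -0.34 without Plekhg5-deficient nerve 5. It was -0.34 without both nerves numbered 5, -0.27 with a pseudocount of 0.1 and -0.39 with array weights. That of the co-chaperones was lower without Plekhg5-deficient nerve 3, at -0.21. The median of the stress response genes was -0.30 with FPKM as deposited and -0.31 without both nerves numbered 5, and no gene passed the adjusted threshold. In 4 of the 18 genes, Herpud1, Edem1, Sdf2l1 and Ddit3, every Plekhg5-deficient nerve lay below every wild-type nerve, as in 5.88% of all genes. Herpud1, a component of endoplasmic reticulum-associated degradation, was measured at 73.8, 76.1 and 69.2 FPKM in the wild type, against 44.0, 40.2 and 68.7 FPKM in mutant nerves. Its log2 fold change was -0.55 (standard error 0.23, adjusted p = 0.972, limma), and the nerves numbered 5 of both genotypes were nearly equal.

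Edem1, which directs misfolded glycoproteins to degradation, was measured at 6.08, 6.99 and 6.52 FPKM in the wild type, against 5.21, 4.26 and 4.48 FPKM in mutant nerves (log2 fold change -0.42, adjusted p = 0.972, limma). Sdf2l1, a partner of Hspa5, was measured at 4.23, 3.62 and 2.55 FPKM in the wild type, against 2.24, 2.03 and 2.17 FPKM in mutant nerves. Its log2 fold change was -0.49 (adjusted p = 0.972, limma), and the Cufflinks interval of wild-type nerve 5 overlapped those of the mutant nerves. Sil1, the nucleotide exchange factor of Hspa5, was listed with the exchange factors and its values also did not overlap, at 9.56, 10.8 and 7.74 FPKM against 6.79, 7.59 and 5.66 FPKM. The Cufflinks intervals of wild-type nerve 5 (6.45 to 9.03 FPKM) and Plekhg5-deficient nerve 3 (6.70 to 8.47 FPKM) did overlap. The log2 fold change of Sil1 was -0.43 (adjusted p = 0.974, limma). For 1 other exchange factor every Plekhg5-deficient nerve lay above every wild-type nerve. The abundant folding factor Calr, calreticulin, overlapped, at 178, 189 and 150 FPKM against 157, 123 and 108 FPKM, as did Hsp90b1, the Hsp90 of the endoplasmic reticulum, at 178, 202 and 149 FPKM against 205, 161 and 130 FPKM.

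Fkbp5, a co-chaperone of Hsp90 that glucocorticoids induce, had the largest positive log2 fold change of the 106 genes. It was measured at 5.67, 4.82 and 14.7 FPKM in the wild type, against 22.8, 13.6 and 24.9 FPKM in mutant nerves. Wild-type nerve 5 lay just above Plekhg5-deficient nerve 3, and the log2 fold change was 1.29 (standard error 0.43, adjusted p = 0.897, limma). Of the 13 co-chaperones, 5 were lowest in both nerves numbered 5, among them Stip1 and Fkbp4 but not St13, the most abundant. Stip1, which links Hsp70 to Hsp90, stood at 50.4, 47.9 and 26.1 FPKM against 34.4, 48.5 and 28.4 FPKM, and Fkbp4 at 41.7, 30.8 and 22.6 FPKM against 25.1, 37.2 and 22.1 FPKM.

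J-domain proteins had a median of 0.048, with 9 of 20 below 0, and a range of -0.025 to 0.11 when 1 library was left out. Both nerves numbered 5 were lowest for 6 of the 20, but not for the more abundant Dnajc7 and Dnajb9. Dnaja1, a partner of Hspa8, stood at 44.4, 51.6 and 16.7 FPKM in the wild type, against 27.7, 41.2 and 15.3 FPKM in mutant nerves. Dnaja1 was 1 of the 6. The cytosolic chaperonin and prefoldin genes, which fold actin and tubulin, had a median of 0.11, and 7 of 14 were lowest in both nerves numbered 5. Cct5, for example, stood at 119, 102 and 74.1 FPKM in the wild type, against 111, 121 and 82.3 FPKM in mutant nerves.

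Small heat shock proteins, which hold unfolded proteins without using ATP, numbered 7. None was lowest in both nerves numbered 5, and Hspb2, Hspb6 and Hspb7 were highest in both, as were 15.3% of all genes, whereas the list as a whole summed to 2269 and 1827 FPKM in these nerves and to 1584 to 2635 FPKM in the other 4. Cryab, the αB-crystallin of Schwann cells and muscle and the most abundant of the chaperone transcripts examined, stood at 1313, 2343 and 1799 FPKM in the wild type, against 1493, 1310 and 1120 FPKM in mutant nerves (log2 fold change -0.45, standard error 0.33, adjusted p = 0.974, limma). Hspb6, which is abundant in muscle, stood at 86.0, 33.3 and 131 FPKM against 32.3, 13.7 and 347 FPKM. Skeletal muscle markers were highest and lowest in the same nerves as Hspb6, at 55504 FPKM in Plekhg5-deficient nerve 5 and 313 FPKM in Plekhg5-deficient nerve 3, and their part in Hspb6 was not tested.

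Medians of the other lists were 0.15 for the other Hsp70 and Hsp110 genes, 0.0013 for the other Hsp90 genes, 0.041 for nucleotide exchange factors, 0.060 for mitochondrial protein quality control, -0.047 for the co-chaperones, -0.096 for small heat shock proteins and 0.011 for heat shock factors. Leaving out 1 library turned the sign of each of these 7 medians, with ranges of -0.34 to 0.19 for small heat shock proteins, -0.21 to 0.10 for co-chaperones, -0.021 to 0.23 for the other Hsp70 and Hsp110 genes, -0.12 to 0.12 for the other Hsp90 genes, -0.044 to 0.15 for exchange factors, -0.079 to 0.20 for the mitochondrial list and -0.0045 to 0.13 for heat shock factors. Hsf1, which encodes the main regulator of inducible chaperones, stood at 11.5, 10.5 and 12.6 FPKM in the wild type, against 10.4, 9.65 and 12.9 FPKM in mutant nerves. Its transcript therefore did not share the order of libraries of Hspa1a and Hspa1b. Hsf2, a related factor, stood at 9.25, 6.05 and 6.31 FPKM against 8.12, 11.0 and 13.1 FPKM (log2 fold change 0.52, standard error 0.25, adjusted p = 0.974, limma).

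**Figure D4:**
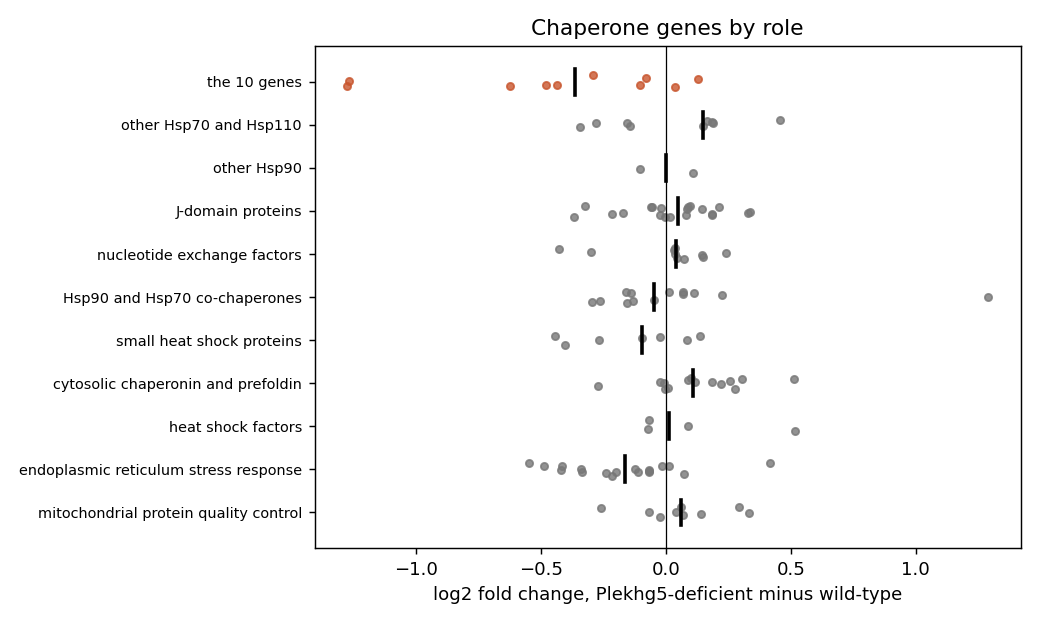
Log2 fold change of each tested gene between Plekhg5-deficient and wild-type nerves (horizontal axis), by role (rows), with the 10 genes in orange, other chaperone genes in grey and the median of each row as a black bar. The 10 genes had a median of -0.36, the endoplasmic reticulum stress response -0.16, and the point farthest to the right is Fkbp5 at 1.29.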

How the data were processed

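Poly(A) RNA of 6 sciatic nerves was sequenced by the authors, who trimmed the reads (Trim Galore 0.4.0), removed the first 9 bases, mapped to GRCm38 with STAR and estimated FPKM with 95% intervals per gene and library with Cufflinks 2.2.1; these FPKM tables were deposited. They hold no counts. The sources used here do not give the annotation release, strand setting or depth, so precision was read from replicates and Cufflinks intervals. FPKM of 19 repeated identifiers were summed.

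Each library was scaled by its median of ratios. Genes whose mean reached 0.1 FPKM in 1 genotype or both entered a fit of log2(FPKM + 1) by limma 3.58.1 (R 4.3.3; genotype as the single term, variance trend, two-sided, Benjamini-Hochberg over 21285 genes, called at an adjusted p under 0.05). The sum of Hspa1a and Hspa1b replaced both rows in a second fit. The fit was tested on simulated data. The limma p-values weigh the genotype difference against the spread between 3 nerves per genotype, which limma moderates with the variance of all tested genes. Sequences were searched with Python 3.11.15 and Biopython 1.88; figures used matplotlib 3.10.9.

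The members and the lists were chosen with earlier results of these data known. Genes named were the members, Plekhg5, the 3 genes of highest mean in each chaperone list, the 6 chaperone genes of smallest p, the 2 highest of each marker or early gene list and the 5 genes nearest to the Hspa1 sum, of which some are not reported here. Ddit3, Sel1l, Arc, Egr3, Fosb, Hspb2, Hspb7 and the copies Gm15459 and Gm12346 were named after their values were seen. 1 symbol, Hspa14, matched more than 1 identifier and was left out. The fit was repeated under 17 alternatives.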

Additional observations from a re-analysis of the deposited data

How the results depend on the processing

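Over the 10 genes and the Hspa1 sum, 175 of 187 values under 17 alternatives kept their sign, 12 reversed and none passed the threshold (adjusted p from 0.301, limma). The count overstates stability, because the sum repeats Hspa1a and Hspa1b. A minimum of 1 FPKM, no minimum, no variance trend and a robust variance also leave every log2 fold change unchanged, so no sign could reverse under them. Hsp90aa1 reversed to -0.13 with FPKM as deposited, -0.12 with array weights and -0.45 with a replicate block, and ranged from -0.54 to 0.56 when 1 library was left out. Hspe1 reversed to -0.039 with FPKM as deposited, -0.020 with array weights and -0.0057 without both nerves numbered 5, with a range of -0.011 to 0.20 over single libraries left out. That range was -0.38 to 0.12 for Hsp90ab1 (positive without wild-type nerve 2 or Plekhg5-deficient nerve 5, at 0.073 and 0.12), -0.31 to 0.14 for Hspd1 and -2.18 to -0.62 for the Hspa1 sum. FPKM as deposited moved the median of all genes from 0.0065 to -0.094. The median of J-domain genes was then -0.076 and that of the endoplasmic reticulum stress genes -0.30. Without both nerves numbered 5 that of the latter was -0.31 and that of the other Hsp70 and Hsp110 genes -0.13. With 1 library left out, the stress gene median ranged from -0.27 to -0.10. The cause of these shifts was not tested.

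Over all genes, 2 were called lower and 6 higher. The lower count was 1 with a pseudocount of 0.1, a minimum of 1 FPKM or a robust variance, 8 with array weights, and 0 with no minimum or without both nerves numbered 5 (735 at an unadjusted p under 0.05). The higher count was 14 with array weights and 2 with no minimum. With 1 library left out, the counts were 0 for lower and 0 to 5 for higher. The numbers 2 and 5 occur in both genotypes, and nothing says that they pair animals. Deviations correlated at 0.073 for number 2 and 0.580 for number 5. Between nerves of different number, correlations ran from -0.522 (wild-type nerve 4 with Plekhg5-deficient nerve 5) to 0.457 (wild-type nerve 4 with Plekhg5-deficient nerve 2). With a replicate block, 0 genes were called lower and 0 higher (616 and 336 at an unadjusted p under 0.05), and the Hspa1 sum was -0.52. With 3 nerves per genotype and no counts, the differences seen in these genes could not be resolved from the spread between nerves.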
